A study of Mus musculus with 6 samples.

Results

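Transcripts of 10 glycolytic enzymes were described in nuclei that had been sorted from mPFC (medial prefrontal cortex) tissue of Foxp2-Cre mice. The 10 genes were taken by symbol, Hk1, Gpi1, Pfkm, Pfkp, Aldoa, Tpi1, Pgk1, Eno2, Pkm and Ldha, out of 24421 in the deposited count table. The rule uses no measured value, but the set was chosen with earlier results of these data known. There were 3 libraries from mice given CFA (complete Freund's adjuvant, which causes long-lasting inflammation and pain where it is injected) and 3 from mice given saline. In every library of both groups the nuclei came from mice injected bilaterally in the mPFC with an adeno-associated virus expressing KASH-GFP, a green fluorescent protein held at the nuclear envelope, with collection 4 weeks after that injection. Each library was made from 10000 sorted nuclei labelled as Foxp2 positive neurons, so it holds the RNA that came with the sorted nuclei of whichever cells carried Cre and the virus. The labels give neither the age of the mice nor the time between CFA and collection. They also do not say that replicates came from separate animals, so the p-values measure only how these libraries vary, and that variation may be technical.

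Glycolysis splits glucose into pyruvate in the cytosol and yields ATP and NADH. Hexokinase traps glucose in the cell, phosphofructokinase sets the pace of the upper steps, and pyruvate kinase ends the pathway. Lactate dehydrogenase then turns pyruvate into lactate and restores NAD+. In the brain neurons burn much of their fuel in mitochondria, astrocytes are known for strong glycolysis, and several enzymes exist as isozymes that differ between cell types, such as the neuronal enolase Eno2 and the astrocytic aldolase Aldoc. Many glycolytic genes are known targets of HIF, the transcription factor induced by low oxygen, which binds a core sequence ACGTG or GCGTG.

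That core was searched on both strands of the 250 bases before each start site, in RefSeq sequences of build GRCm38.p6, where all 10 genes matched by symbol, with 18 start sites between them. At least 1 match lay before a start site of 7 of the 10 genes (11 of 18 windows), against 38.6% of all 32851 windows. The stretches of 160 bases that end just before the start sites of Ldha, Pgk1 and Eno2 are shown because the first and second carry the core and Eno2 does not in its full 250 bases. Capitals mark the matches, which in Ldha include 2 palindromes read on both strands.
Ldha, chr7:46845644-46845803, plus strand: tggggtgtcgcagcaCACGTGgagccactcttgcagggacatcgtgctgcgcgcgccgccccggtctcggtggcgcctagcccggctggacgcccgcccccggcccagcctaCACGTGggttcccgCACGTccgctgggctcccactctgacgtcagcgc
Pgk1, chrX:106186940-106187099, plus strand: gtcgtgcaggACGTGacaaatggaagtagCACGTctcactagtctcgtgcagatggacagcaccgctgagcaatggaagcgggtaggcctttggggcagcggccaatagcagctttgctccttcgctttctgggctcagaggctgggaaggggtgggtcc
Eno2, chr6:124769674-124769833, minus strand: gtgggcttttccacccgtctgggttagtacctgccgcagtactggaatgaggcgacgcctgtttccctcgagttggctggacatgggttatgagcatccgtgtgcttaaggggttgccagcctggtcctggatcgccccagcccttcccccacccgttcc
These matches are a description of the letters in the windows and carry no statement about binding.

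Total counts were 10663201 to 11850741 in the CFA libraries and 9673038 to 11117681 in the saline libraries. Levels are given as CPM (read counts scaled to a common library size with TMM factors), and a count of 3, the limit that a count of 0 allows, corresponds to 0.25 to 0.304 CPM. The members had 1478 to 33780 counts per library, so counting error is small beside the spread between libraries. Slc17a7, the vesicular transporter that marks cortical excitatory neurons, had 1931 to 2645 CPM in CFA libraries and 1947 to 2290 CPM in saline libraries, and Foxp2 had 24 to 34.9 and 28.3 to 43.7 CPM. The most abundant astrocyte marker, Slc1a2, which neurons also transcribe, had 258 to 363 CPM in CFA and 278 to 352 CPM in saline libraries. Saline replicate 3 stood apart: its nuclear long non-coding RNAs (10 genes, such as Malat1) took 4.74% of counts, against 2.19% to 3.27% in the other 5 libraries, so results are also given without it. Other marker lists were uneven in sign, although 0 of their genes passed the test, which 0% of all genes passed. Striatal projection neuron markers had 9 of 9 negative log2 fold changes, CFA minus saline (median -1.01). Their summed level was 486, 290 and 337 CPM in CFA replicates 1, 2 and 3. In saline replicates 1, 2 and 3 it was 1009, 501 and 396 CPM. The upper saline value was thus that of replicate 1 alone, and saline replicate 3 lay below CFA replicate 1. Of these 9, 6 had an unadjusted p under 0.05 from edgeR, against 3.22% of all genes tested. The groups did not overlap for 2 of them, against 7.51% of all genes tested. Inhibitory neuron markers had 10 of 11 positive (median 0.23), at 434 to 604 CPM in CFA and 366 to 563 CPM in saline libraries. Microglia markers had 11 of 12 positive (median 0.49), at 103 to 162 CPM in CFA and 81.1 to 119 CPM in saline libraries. Inhibitory neuron and microglia markers had 1 gene each at an unadjusted p under 0.05, and 0 and 1 genes without overlap. Oligodendrocyte lineage markers had 7 of 11 positive (median 0.126, from -1.1 to 2.91), at 329 to 501 CPM in CFA and 354 to 439 CPM in saline libraries. Among these 11, 2 had an unadjusted p under 0.05 and 3 had groups that did not overlap. The part of these cell types in the values of the members was not tested.

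The enzymes were abundant transcripts in the libraries of both groups, and no difference between CFA and saline passed the test. Per kilobase of exon, all 10 lay among the 786 highest of the 13560 genes tested. The 10 together took 0.893%, 0.868% and 0.991% of all counts in CFA libraries, a mean of 0.917% ± 0.0649 (SD, n = 3). In saline libraries they took 1.01%, 0.977% and 0.717%, a mean of 0.901% ± 0.160 (SD, n = 3). With edgeR (quasi-likelihood test, Benjamini-Hochberg adjustment over all 13560 genes), 0 of the 10 members had an adjusted p under 0.05, against 0% of all genes. At an unadjusted p under 0.05 there were 0 of 10 members, against 3.22% of all genes, and DESeq2, limma-voom and edgeR's likelihood ratio test also called 0 members. The groups overlapped for all 10, where 7.51% of all genes tested had groups that did not overlap. The median log2 fold change of the members, CFA minus saline, was 0.029, beside -0.0011 over all genes tested.

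The levels spanned more than an order of magnitude between enzymes. Aldoa was the highest per length, at 1454 ± 144 CPM per kb in CFA and 1421 ± 365 CPM per kb in saline libraries, rank 4 of all genes tested. Pkm followed at 639 ± 66.5 and 616 ± 121 CPM per kb, and Tpi1 at 492 ± 39.1 and 479 ± 121 CPM per kb in the same order of groups. Pkm was above Tpi1 in 6 of 6 libraries. Eno2 was at 400 ± 37.6 CPM per kb in CFA and 409 ± 57.0 in saline libraries, and Ldha at 391 ± 64.6 and 400 ± 94.5. Tpi1 was above Eno2 in 5 of 6 libraries and Eno2 above Ldha in 3 of 6, so that the last pair had no fixed order. Gpi1 (185 ± 10.5 and 184 ± 33.9 CPM per kb) was above Pfkp (163 ± 16.6 and 158 ± 18.1) in 6 of 6 libraries, and Pfkp above Pfkm (114 ± 8.56 and 112 ± 6.25) in 6 of 6. Pfkm, Pgk1 (112 ± 18.4 and 105 ± 21.5 CPM per kb) and Hk1 (99.4 ± 13 and 97.8 ± 19.5) were the lowest, and each was above the next in only 4 of 6 libraries.

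**Figure D1:**
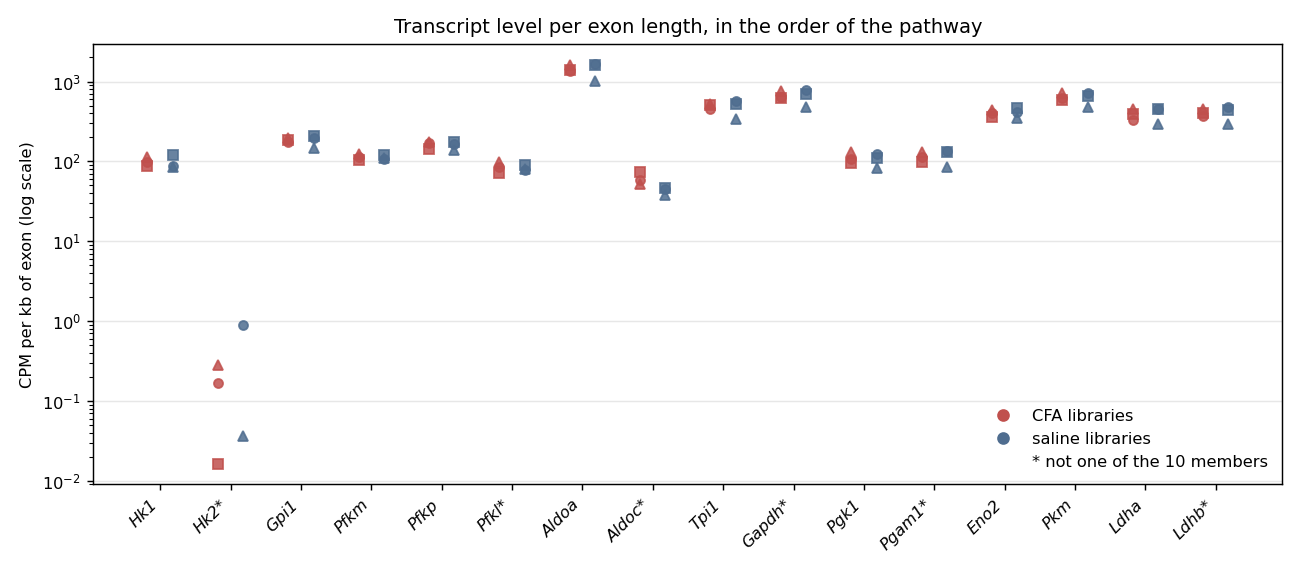
Level per exon length (CPM per kb, log scale) of glycolytic genes in pathway order, with CFA libraries on the left of each gene and saline libraries on the right (circle, square and triangle are replicates 1, 2 and 3; Hk2 of saline replicate 2, at 0, cannot be drawn). Aldoa is highest, at 1001 to 1657 CPM per kb, and Hk1, Pgk1 and Pfkm are the lowest members, at 82.1 to 132 CPM per kb.

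Counts per length depend on how near-identical sequence was counted, and how multiply mapping reads were handled is not given in the sources used here. In GENCODE M21, 4 other genes matched Pgk1 and 4 matched Ldha over at least 200 bases at an identity of at least 95%. For Pgk1 the longest such match was 1255 bases at 100% identity to Pgk1-rs7. Gpi1 and Tpi1 had 1 such gene each and Pkm had 2, none of them with a row in the count table. Their reads may have been divided or dropped, so the levels of these 5 genes are uncertain to that extent. Hk1, Pfkm, Aldoa and Eno2 had 0 such copies. Pfkp shares 276 bases of exon with Pitrm1 on the opposite strand in the table, and 748 bases at 100% identity between their GENCODE transcripts, while Tpi1 shares 25 with Spsb2, and reads there cannot be assigned to a strand with an unstranded kit.

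The upper steps of the pathway, from glucose to the split of the sugar phosphate, overlapped between the groups. Hk1 (chromosome 10, 62268855 to 62379908, mm10), the main hexokinase of brain and the step that traps glucose, was at 441, 394 and 510 CPM in CFA replicates 1, 2 and 3. In saline replicates 1, 2 and 3 it was at 399, 542 and 381 CPM. Saline replicate 2 was the highest and saline replicate 3 the lowest of the 6, with the CFA libraries between them, and the log2 fold change was 0.025 ± 0.188 (SE). Gpi1 (chromosome 7, 34201327 to 34230336), which turns glucose phosphate into fructose phosphate, was at 505, 532 and 566 CPM in CFA and 574, 601 and 420 CPM in saline libraries. The CFA libraries lay inside the saline range, and the log2 fold change was 0.0068 ± 0.180.

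The phosphofructokinase subunits, which commit sugar to glycolysis, varied least. Pfkm (chromosome 15, 98092589 to 98132447), the muscle-type subunit, was at 352, 320 and 372 CPM in CFA libraries and 326, 364 and 339 CPM in saline libraries. Its highest library was 1.16 times its lowest, the smallest ratio of the 10 members, and its log2 fold change was 0.020 ± 0.163 (SE). Pfkp (chromosome 13, 6579874 to 6648771), the platelet-type subunit abundant in brain, was at 716, 603 and 728 CPM in CFA and 681, 726 and 578 CPM in saline libraries. In each group 1 library was lower than the other two, CFA replicate 2 and saline replicate 3, and the log2 fold change was 0.045 ± 0.172.

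The middle steps showed the widest spread between libraries. Aldoa (chromosome 7, 126795234 to 126800447), the aldolase that cleaves fructose bisphosphate, was at 2488, 2512 and 2954 CPM in CFA libraries. It was at 3022, 2926 and 1826 CPM in saline libraries. Saline replicates 1 and 2 were both near or above the highest CFA library while saline replicate 3 was far below every other library, and the log2 fold change was 0.033 ± 0.203 (SE). Tpi1 (chromosome 6, 124810592 to 124814296), which interconverts the triose phosphates, was at 719, 806 and 840 CPM in CFA and 905, 848 and 545 CPM in saline libraries. Every CFA library lay between saline replicate 3 and the other saline libraries, and the log2 fold change was 0.041 ± 0.200. Pgk1 (chromosome X, 106187100 to 106203699), which makes the first ATP of the pathway, was at 196, 175 and 241 CPM in CFA and 227, 198 and 150 CPM in saline libraries. Its log2 fold change of 0.088 ± 0.196 was the largest in size of the 10, with an adjusted p of 1 from edgeR (0.66 before adjustment).

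The last steps gave the same picture. Eno2 (chromosome 6, 124760053 to 124769673), the neuronal enolase, was at 1132, 1006 and 1214 CPM in CFA libraries and 1155, 1296 and 978 CPM in saline libraries. The CFA libraries lay inside the saline range, and the log2 fold change was -0.032 ± 0.175 (SE). Pkm (chromosome 9, 59656368 to 59679375), pyruvate kinase, whose splice forms are not separated in counts per gene, was at 1620, 1511 and 1850 CPM in CFA and 1850, 1702 and 1248 CPM in saline libraries. CFA replicate 3 and saline replicate 1 were the highest and saline replicate 3 the lowest, and the log2 fold change was 0.053 ± 0.187. Ldha (chromosome 7, 46845804 to 46855627), the lactate dehydrogenase subunit that favours lactate formation, was at 630, 752 and 879 CPM in CFA and 883, 872 and 562 CPM in saline libraries. Saline replicates 1 and 2 and CFA replicate 3 were close together, and the log2 fold change was -0.035 ± 0.205.

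**Figure D2:**
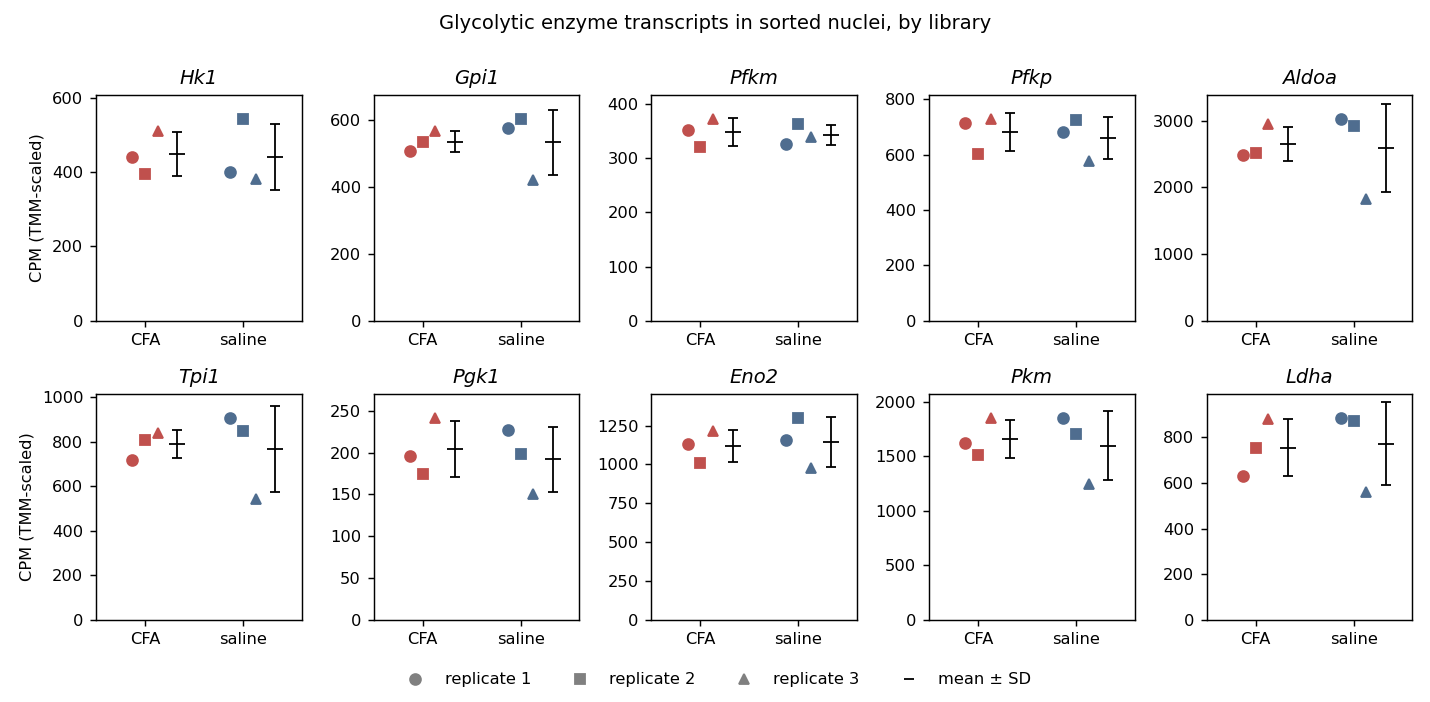
CPM (TMM-scaled, axes from 0) of the 10 enzymes, with the 3 CFA libraries left of the 3 saline libraries in each panel (symbols are replicates, bars the mean ± SD). The groups overlap in every panel, and saline replicate 3 (triangle) is the lowest of the 6 libraries for all members but Pfkm.

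The size of change that these data leave room for is given by the intervals. The 95% intervals of the log2 fold changes reached from -0.47 (Ldha, lower bound) to 0.51 (Pgk1, upper bound). For Pfkm, the tightest, the interval was -0.33 to 0.37, a fold of 0.797 to 1.29. For Pgk1 the bounds corresponded to a fold of 0.795 to 1.42, and for Ldha to 0.720 to 1.32. A p above the threshold does not show that the groups were alike, and changes within these intervals are not excluded. The power to detect changes of that size was not tested. Of the 10 log2 fold changes 8 were positive, beside 49.8% of all genes tested. With CFA replicate 3 left out 0 were positive, at a median of -0.039, and with saline replicate 3 left out 1 was, at a median of -0.11.

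**Figure D3:**
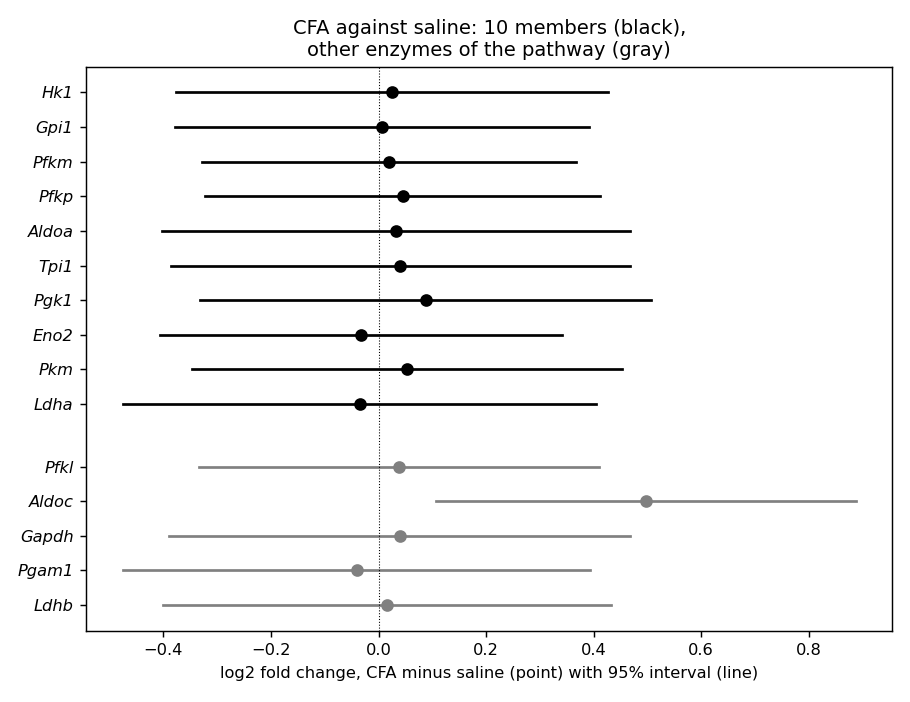
Log2 fold change, CFA minus saline, with its 95% interval from edgeR's quasi-likelihood fit, unadjusted, for the 10 members (black) and 5 other enzymes of the pathway (gray). All 10 members lie between -0.035 and 0.088 with intervals that include 0, and Aldoc lies apart at 0.50.

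The levels of the members varied together between libraries. Their mean log2 CPM was 9.42, 9.37 and 9.62 in CFA libraries and 9.56, 9.60 and 9.14 in saline libraries, a mean of 9.47 ± 0.132 in CFA and 9.43 ± 0.257 in saline (SD, n = 3 each). Saline replicate 3 was the lowest library for 9 of 10 members, against 23.7% of all genes tested, and Pfkm was the exception, lowest in CFA replicate 2. Relative to the mean of the other 5 libraries, saline replicate 3 held 65.7% for Aldoa, 66.2% for Tpi1 and 70.0% for Ldha. It held 83.4% for Hk1, 83.6% for Pfkp, 84.2% for Eno2 and 97.8% for Pfkm. The median was 74.3% over the members and 98.4% over all genes tested. As a description over these 6 libraries, which share depth and scaling within each library, the 45 pairs of members had a median Pearson correlation of 0.807, from 0.065 (Pfkm and Tpi1) to 0.977 (Pgk1 and Pkm), with 0 negative.

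The spread also differed between long and short transcripts of the set. The ratio of the highest to the lowest library was 1.66 for Aldoa and Tpi1, 1.61 for Pgk1 and 1.57 for Ldha, whose exon lengths run from 1601 to 1930 bases. It was 1.42 for Hk1, 1.26 for Pfkp and 1.16 for Pfkm, with 4509, 4186 and 3051 bases. Across the 10 members the Pearson correlation between log exon length and the log of that ratio was -0.762, a description over genes that share the same libraries.

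Transcripts abundant in neuronal cytoplasm were also lowest in saline replicate 3. A list of 24 such transcripts, among them Snap25 and Tubb3, had a mean log2 CPM of 9.33, 9.40 and 9.50 in CFA and 9.51, 9.53 and 9.05 in saline libraries, and 19 of the 24 were lowest in saline replicate 3. The level of the members minus that of this list was 0.092, -0.027 and 0.119 on the log2 scale in CFA and 0.048, 0.072 and 0.085 in saline libraries. That difference spanned 0.146 over the 6 libraries, where the level of the members itself spanned 0.485. Nuclear long non-coding RNAs went the other way, at a mean log2 CPM of 7.59, 7.70 and 7.47 in CFA and 7.34, 7.73 and 8.59 in saline libraries. Of these 10 genes 9 had negative log2 fold changes, CFA minus saline (median -0.277), and 0 passed the test. An unadjusted p under 0.05 from edgeR was found for 2, against 3.22% of all genes tested. The groups did not overlap for 1, against 7.51% of all genes tested. The part of carried-over cytoplasmic RNA in the levels of the members was not tested.

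**Figure D4:**
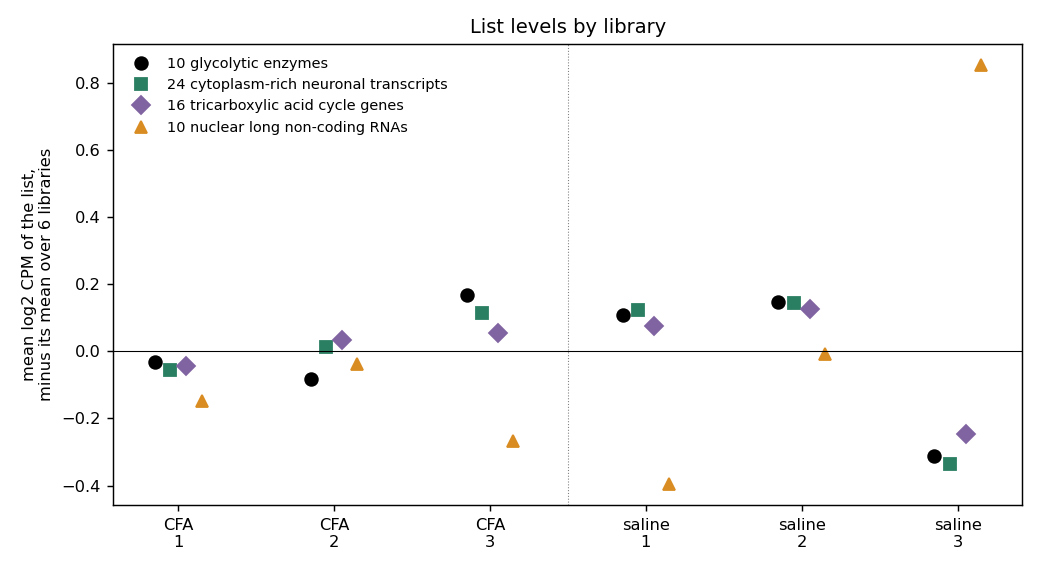
Mean log2 CPM of 4 gene lists in each library, minus the list's own mean over the 6 libraries, with CFA libraries left of saline libraries. In saline replicate 3 the glycolytic enzymes (9.14), cytoplasm-rich transcripts (9.05) and tricarboxylic acid cycle genes (6.86) are at their lowest log2 level and nuclear long non-coding RNAs (8.59) at their highest.

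Among the 6662 other genes that averaged a log2 CPM of 5 or more, those whose log2 CPM followed the mean of the members most closely over the 6 libraries were Sae1 (Pearson r = 0.995), Ghitm (0.994) and Gsr (0.990). Sae1 encodes a subunit of the SUMO-activating enzyme, Ghitm a protein of the inner mitochondrial membrane and Gsr glutathione reductase. Sae1 was at 158, 151 and 192 CPM in CFA and 186, 190 and 127 CPM in saline libraries, again lowest in saline replicate 3.

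Of 19 listed isozymes and remaining steps of the pathway 15 were tested, and 0 passed the test. Among the 15, 1 gene had groups that did not overlap, Aldoc, against 7.51% of all genes tested. At an unadjusted p under 0.05 from edgeR there was 1, against 3.22% of all genes tested. The list had 8 positive and 7 negative log2 fold changes and a median of 0.015. Gapdh, the step that makes NADH, was at 951, 917 and 1132 CPM in CFA and 1173, 1037 and 709 CPM in saline libraries, with a log2 fold change of 0.039 ± 0.200 (SE). It has 78 other genes with near-identical sequence in GENCODE M21, the most of any enzyme here, so its level is uncertain. Pgam1, the mutase between Pgk1 and enolase, was at 205, 181 and 241 CPM in CFA and 249, 241 and 156 CPM in saline libraries. Its level is uncertain too, with 1 such gene, Pgam1-ps2, that matches over 765 bases at 100% identity. Gapdh and Pgam1 both had saline replicate 3 as their lowest library, as 9 of the members did. Pfkl, the liver-type phosphofructokinase subunit, was at 317, 269 and 363 CPM in CFA and 288, 334 and 302 CPM in saline libraries, and Ldhb, the lactate dehydrogenase subunit of oxidative tissue, at 487, 527 and 585 and at 620, 573 and 388 CPM. Hk3 had 0 counts in all libraries, which allows up to 0.25 to 0.304 CPM, and Pgk2, Pklr and Ldhc were too low to test.

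Aldoc, the aldolase of astrocytes, was at 168, 209 and 150 CPM in CFA and 131, 134 and 108 CPM in saline libraries. All CFA libraries were above all saline libraries, with a log2 fold change of 0.50 ± 0.18 (SE) and an adjusted p of 1 from edgeR (0.016 before adjustment), so it was not called. Of 15 astrocyte markers, all tested, 8 had positive and 7 negative log2 fold changes (median 0.145, from -0.202 to 1.47). Of these markers 2 had an unadjusted p under 0.05 from edgeR, against 3.22% of all genes tested. The groups did not overlap for 2, against 7.51% of all genes tested. Their mean log2 CPM was 3.85, 4.04 and 3.61 in CFA and 3.37, 3.48 and 3.67 in saline libraries. Their summed level, of which Slc1a2 was the largest part, was 457 to 603 CPM in CFA and 487 to 561 CPM in saline libraries. No marker was at 0 in all libraries, and 0 passed the test. The part of astrocyte RNA in the Aldoc values was not tested. In sorted bulk nuclei more cells of a type and more RNA per cell cannot be told apart.

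The balance of isozymes within a step, which does not depend on library scaling, was compared for 5 shares of counts per kilobase. Aldoa made up 95.9% ± 0.943 of Aldoa and Aldoc together in CFA and 97.0% ± 0.515 in saline libraries (SD, n = 3 each), a difference of -1.04 percentage points (p = 0.2, exact permutation test). Ldha made up 48.7% ± 1.90 of Ldha and Ldhb in CFA and 49.7% ± 0.860 in saline libraries (p = 0.5, exact permutation test), so the subunits stood nearly level. Pfkp made up 45% ± 0.908 of the phosphofructokinase transcripts in CFA and 44.6% ± 2.62 in saline libraries (p = 0.9, exact permutation test). Hk1 made up 99.9% ± 0.116 of Hk1 and Hk2 in CFA and 99.7% ± 0.564 in saline libraries (p = 0.9, exact permutation test). Hk2, the inducible hexokinase, had at most 55 counts, in saline replicate 1, and 0 in saline replicate 2, which allows a share of up to 0.0420%. These exact permutation tests were two-sided and cannot go below p = 0.1 with 3 libraries against 3. Every p adjusted over the 5 shares was 0.5 or more.

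Eno2 made up 98.2% ± 0.0369 of Eno1 and Eno2 in CFA and 98.5% ± 0.105 in saline libraries, and the groups did not overlap (p = 0.1 in the two-sided exact permutation test, the smallest possible; adjusted p = 0.5). This share rests on a count of Eno1, the enolase of most tissues, that the gene models limit. In the deposited table the model of Eno1b, a near-identical copy on another chromosome, also covers the Eno1 locus on the same strand, and 1649 of the 1776 exon bases of Eno1 are shared. Eno1 was listed at 11.7 to 13.7 CPM in CFA and 8.82 to 12.8 CPM in saline libraries, and Eno1b at 95.8 to 208 and 70.5 to 216 CPM. With Eno1b added to Eno1, an alternative chosen after the data were seen, the Eno2 share was 88.1% ± 3.39 in CFA and 88.5% ± 4.06 in saline libraries, with overlap. The level of the ubiquitous enolase cannot be read from these counts.

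Genes around glycolysis gave 0 calls in 7 lists of fuel metabolism, and 1 gene among them, Myc, reached an unadjusted p under 0.05 with edgeR. Together with the other isozymes these lists held 102 tested genes. Of the 102, 2 had an unadjusted p under 0.05, against 3.22% of all genes tested. Medians stand beside -0.0011 over all genes. Glycolysis regulators had 8 positive and 7 negative log2 fold changes among 15 tested (median 0.037). Myc, a transcription factor that drives growth and glycolysis, was at 3.66, 4.50 and 5.67 CPM in CFA and 8.32, 14.2 and 7.60 CPM in saline libraries. It was lower in every CFA library than in any saline library, with a log2 fold change of -1.12 ± 0.40 (SE) and an adjusted p of 1 from edgeR (0.0146 before adjustment). Pfkfb1, which makes the activator of phosphofructokinase, had 0.0882 to 2.02 CPM in CFA and 1.52 to 4.21 CPM in saline libraries, and only CFA replicate 2 was under the limit that a count of 0 allows. HIF targets outside glycolysis had 6 positive and 9 negative among 15 tested (median -0.031). Egln1, the oxygen sensor that marks HIF for degradation, was at 18.1, 24.1 and 17.9 CPM in CFA and 42.1, 33.8 and 13.6 CPM in saline libraries, with saline replicate 3 below every CFA library.

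Uptake and disposal of sugar carbon were described in the same way. Glucose and lactate transporters had 4 positive and 6 negative among 10 tested (median -0.042). Slc2a1, the glucose transporter of vessels and glia, was at 49.3, 65.0 and 59.7 CPM in CFA and 43.1, 52.6 and 44.3 CPM in saline libraries, and CFA replicate 1 overlapped the saline range. Slc2a6, another hexose transporter, was at 116, 116 and 117 CPM in CFA and 110, 90.0 and 115 CPM in saline libraries, without overlap, at an unadjusted p of 0.418. Genes of pyruvate entry into mitochondria had 12 positive and 1 negative among 13 tested (median 0.083), and 0 of them had an unadjusted p under 0.05. Saline replicate 3 was the lowest library for 8 of these genes, and without it 6 were positive and 7 negative (median -0.018), an alternative chosen after the data were seen. Pdp1, the phosphatase that activates pyruvate dehydrogenase, was at 123, 121 and 153 CPM in CFA and 104, 126 and 97.5 CPM in saline libraries. Tricarboxylic acid cycle genes had 9 positive and 7 negative among 16 (median 0.019), NADH shuttle genes 6 and 4 among 10 (median 0.010), and pentose phosphate genes 3 and 5 among 8 (median -0.25). In the last list Rpe, the epimerase of ribulose phosphate, was at 18.1, 24.2 and 23.6 CPM in CFA and 27.4, 28.0 and 27.1 CPM in saline libraries, without overlap, at an unadjusted p of 0.168.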

How the data were processed

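Per the file headers, the authors deposited raw counts per gene for 6 libraries, with exon intervals and exon length (in bases). Per the submitters' processing notes reads were handled on build mm10 with featureCounts 2.0.1, HISAT2 2.2.1, SAMtools 1.13, edgeR 3.32.1 and Trim Galore. Settings for strand and multiply mapped reads: not given in the sources used here. Per the labels' protocols, libraries were made with Smart-seq V4 (9 PCR cycles) and Nextera XT from 300 ng of cDNA. Reads were amplified and carry no molecular identifiers, so floors cover counting error only.

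Genes were tested with edgeR 4.0.16 (R 4.3.3): TMM scaling, filterByExpr, quasi-likelihood test with treatment as the only term, Benjamini-Hochberg adjustment over 13560 genes, threshold 0.05. Standard errors were derived from the F statistic and intervals from its moderated degrees of freedom. Log2 CPM used a prior count of 2. The test was checked on simulated counts, with changes larger than any bound of the members' intervals. Smaller changes were not simulated. Alternatives used DESeq2 1.42.0, limma 3.58.1, other scalings and filters, a replicate block and each library left out. Copies were searched with BLAST 2.17.0.

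The members, lists and tests were chosen with earlier results of these data known. Named genes were all members, all tested isozymes, the 2 genes with the smallest p of each metabolism list, the 3 genes most like the members, and markers of the sort; only some of those outside the members are printed.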

Additional observations from a re-analysis of the deposited data

How the results depend on the processing

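With every alternative 0 members and 0 genes of the other metabolism lists were called, and the median log2 fold change of the members stayed within the spread between libraries (SD 0.205), from -0.114 without saline replicate 3 to 0.111 without saline replicate 2. Over all genes 0 were called, against 9 without a filter on low counts, 5 in DESeq2, 11 in edgeR's likelihood ratio test and 0 to 5 with a library left out (5 without saline replicate 3). With the replicate number as a block 6 genes were called over all genes, 0 of them members, and the median of the members was 0.041. Whether the replicate numbers pair the libraries cannot be told from these values. Deviations from the mean of 3 libraries are tied to one another, and all correlations between them were weak. Same-numbered libraries correlated at -0.0793, 0.0249 and -0.0692, and CFA replicate 1 correlated best with saline replicate 3 (0.146).

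The fold changes of the members were near 0 and their sign turned in 24 of 140 fits, none of them a call; the cause was not tested. Gpi1 was at -0.00451 with RLE size factors and -0.00453 in DESeq2. With a library left out, log2 fold changes ranged from -0.0752 to 0.202 for Hk1, -0.137 to 0.106 for Gpi1, -0.0268 to 0.0765 for Pfkm, -0.0422 to 0.127 for Pfkp, -0.165 to 0.155 for Aldoa, -0.153 to 0.174 for Tpi1, -0.0611 to 0.225 for Pgk1, -0.132 to 0.070 for Eno2, -0.0966 to 0.168 for Pkm and -0.219 to 0.0729 for Ldha. Differences in isozyme shares with a library left out, in percentage points, ranged from -0.123 to 0.376 for Hk1, -1.07 to 1.48 for Pfkp, -1.52 to -0.578 for Aldoa, -0.295 to -0.191 for Eno2 and -1.86 to 0.0139 for Ldha. On raw counts instead of counts per kilobase the difference was -1.57 for Aldoa and -0.159 for Eno2. For Eno2 it was -0.44 with Eno1b added to Eno1. Positive fold changes among the 13 genes of pyruvate entry numbered 6 to 12 with a library left out (6 without saline replicate 3). A count of 0 allows up to 0.25 to 0.304 CPM, and Hk2 was under that limit in CFA replicate 2 and in saline replicates 2 and 3.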
